A study of Mus musculus with 39 samples.

Results

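The proteasome subunits described here are the genes whose single symbol in the probe annotation is Psma, Psmb, Psmc or Psmd followed directly by a number. The rule found 28 of the 13840 genes named on the array. They comprise 14 genes of the 20S core particle (5 Psma and 9 Psmb), the 6 Psmc ATPases, and 8 Psmd genes of the lid and base of the 19S regulatory particle. Each gene had 1 probe. The probes of 27 members carried a value on every array and were tested. Psmb11, the beta subunit of the thymus, had no value on 2 arrays and was not tested.

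Liver RNA was taken from adult males, either wild type or PPARa-null, both on 129SV. Mice of both genotypes were dosed by gavage on 7 consecutive days. One series of animals received deionised water, PFOA (perfluorooctanoic acid, given as its ammonium salt, a persistent surfactant that activates PPARα) at 1 mg/kg, or PFOA at 3 mg/kg. The other series received 0.5% methylcellulose or 50 mg/kg of pirinixic acid suspended in it; the labels and plots give this synthetic PPARα agonist under a code that starts with Wy. Each of the 10 groups has 4 arrays, apart from the wild-type methylcellulose group with 3. The design names 4 animals per group. The labels do not describe the construction of the null allele. The series asks which responses to PFOA need PPARα, a nuclear receptor for fatty acids.

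The proteasome degrades proteins that have been tagged with ubiquitin. Its core particle is a barrel of stacked rings. The outer rings of alpha subunits (Psma genes) gate the entrance, and the inner rings of beta subunits (Psmb genes) carry the proteolytic sites. The regulatory particle recognises the ubiquitin chain, removes it, and unfolds the substrate with a ring of ATPases (Psmc genes). Other subunits of its base and lid (Psmd genes) bind, hold and deubiquitinate the substrate. In cells exposed to interferon, the catalytic subunits Psmb5, Psmb6 and Psmb7 are replaced by Psmb8, Psmb9 and Psmb10, which gives the immunoproteasome. Psmb6 and Psmb9 were not analysed here. The transcription factor Nfe2l1 drives the subunit genes together when proteasome activity is low, and its relative Nfe2l2 (NRF2) acts on some of them through antioxidant response elements.

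4 promoters are shown because their genes carry the main results: the member with the largest rise (Psmd4), the member called most firmly in both wild-type comparisons (Psmb4), and a catalytic subunit with its interferon-inducible replacement (Psmb5 and Psmb8). The sequences are those of RefSeq (GRCm38.p6), from 250 bases before to 50 bases after the annotated start of the gene, 5′ to 3′ on the strand of the gene. Capitals mark matches to the motifs searched.
Psmd4 promoter, chr3:95042565-95042864, minus strand: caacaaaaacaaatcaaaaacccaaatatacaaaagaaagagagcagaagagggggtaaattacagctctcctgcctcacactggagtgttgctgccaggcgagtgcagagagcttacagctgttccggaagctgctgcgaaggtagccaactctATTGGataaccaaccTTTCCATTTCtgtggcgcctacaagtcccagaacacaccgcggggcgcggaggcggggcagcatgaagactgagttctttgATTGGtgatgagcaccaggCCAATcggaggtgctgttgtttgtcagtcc
Psmb4 promoter, chr3:94886909-94887208, minus strand: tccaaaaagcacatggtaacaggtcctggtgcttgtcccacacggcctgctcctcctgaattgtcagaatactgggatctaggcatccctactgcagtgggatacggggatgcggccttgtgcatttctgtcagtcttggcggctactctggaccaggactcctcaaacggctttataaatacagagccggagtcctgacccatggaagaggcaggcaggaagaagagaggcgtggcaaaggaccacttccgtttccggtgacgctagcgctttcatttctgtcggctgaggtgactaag
Psmb5 promoter, chr14:54617946-54618245, minus strand: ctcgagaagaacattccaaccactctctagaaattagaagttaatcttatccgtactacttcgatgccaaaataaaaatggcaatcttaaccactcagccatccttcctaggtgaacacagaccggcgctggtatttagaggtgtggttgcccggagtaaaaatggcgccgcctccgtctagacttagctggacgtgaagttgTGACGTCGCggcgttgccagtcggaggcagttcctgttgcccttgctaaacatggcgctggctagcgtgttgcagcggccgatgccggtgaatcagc
Psmb8 promoter, chr17:34197945-34198244, plus strand: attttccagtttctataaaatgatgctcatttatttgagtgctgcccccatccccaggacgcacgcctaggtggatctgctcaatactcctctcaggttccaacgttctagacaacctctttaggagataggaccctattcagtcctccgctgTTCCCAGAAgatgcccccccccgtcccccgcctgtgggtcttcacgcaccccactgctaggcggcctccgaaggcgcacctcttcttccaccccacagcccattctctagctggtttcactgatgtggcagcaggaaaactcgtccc

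5 motifs were searched on both strands. The search covered the 25 promoters of the 23 members with a RefSeq entry, and all 32851 promoters of this length. The core of the antioxidant response element (TGACNNNGC) was found in 3 of 25 member promoters (Psmb5, Psmc6 and Psmd12), against 12.4% of all promoters. In Psmb5 it began at position -47 from the annotated start. The CCAAT box, searched as ATTGG, occurred in 9 of the 25 member promoters, that of Psmd4 included, against 37.4% of all promoters. The direct repeat bound by PPARα was searched as AGGNCA followed after 1 base by AGGNCA. It occurred in 0 of the 25 member promoters and in 0.381% of all promoters. The core of the interferon-stimulated response element (GAAA followed after 2 bases by GAAA) was found in Psmd4 and Psmb3, against 3.44% of all promoters. The gamma-interferon activation site (TTCNNNGAA) was found in Psmb8 and Psmd2, against 8.3% of all promoters. In Psmb8 it began at position -97. No match overlapped a match to another motif (0 overlaps in the members). The Psmb4 promoter held none of the 5 motifs in this window.

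The deposited values are log2 signals with the same distribution on every array, so a difference of 1 is a doubling of the signal. Each comparison was tested with limma over the 25295 probes that no array lacked, with a Benjamini-Hochberg adjustment over all of them; a probe is called at an adjusted p under 0.05. Errors after ± are standard errors of the fit. Arrays of the same group correlated with r between 0.928 and 0.974 over all tested probes. The Ppara probe was 15.62 to 16.78 in wild type and 15.04 to 15.34 in null with water, so it read signal in both genotypes and does not check the labels. Cox6b2 separated the genotypes (13.29 to 14.52 against 8.18 to 8.96 with water). In replicate 3 of the wild-type group with 1 mg/kg PFOA it was 9.06, against 16.38 to 16.95 on the other 3 arrays of the group. There the PPARα target Ehhadh was 15.94 against 20.01 to 20.31. This array goes against its label, so comparisons that use its group are given with and without it. It also enters the spread shared by the fit on all 39 arrays, so the other comparisons of that fit include it. The arrays also form sets of 16 and 23 that the labels do not record. Both sets occur in every group apart from wild type with pirinixic acid, which lies wholly in the larger set. The hepatocyte markers were bright in every group (mean log2 signals from 19.92 to 20.85 per array). All values are from whole liver, where fewer cells of a type and less RNA per cell cannot be told apart.

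The probes of the tested members were bright, with means over the 39 arrays from 13.10 (Psmb8) to 17.57 (Psmb1); signals of different probes do not rank their transcripts. The Psmb11 probe was dim, with a mean of 7.41 and missing values. The spread within groups was small, with a median SD of 0.20 over the members, against 0.54 over all tested probes and 0.23 over the 5316 probes at least as bright as the dimmest tested member.

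In wild-type liver most subunits read higher after PFOA at 3 mg/kg. 12 of the 27 tested members rose and 1 fell, while 3.37% of all probes were called higher and 2.46% lower (5.82% in either direction). Among the 5316 bright probes 7.52% were called higher. The signal was higher than in water controls for 25 of 27 members, with a median log2 difference of 0.40 against -0.02 over all tested probes. The members that rose are Psma5, Psma6, Psma7, Psmb1, Psmb2, Psmb3, Psmb4, Psmb5, Psmb7, Psmc4, Psmd4 and Psmd5. The exceptions to the shared direction were Psmb8, which fell, and Psmb10 at -0.57, the interferon-inducible subunits. 16 of 27 members had all 4 treated arrays above all 4 water arrays, against 5.7% of all probes. These 16 were 8 core, 3 ATPase and 5 lid or base genes. In the opposite direction, Psmb8 alone had all its treated arrays below the water arrays, against 4.53% of all probes.

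**Figure D1:**
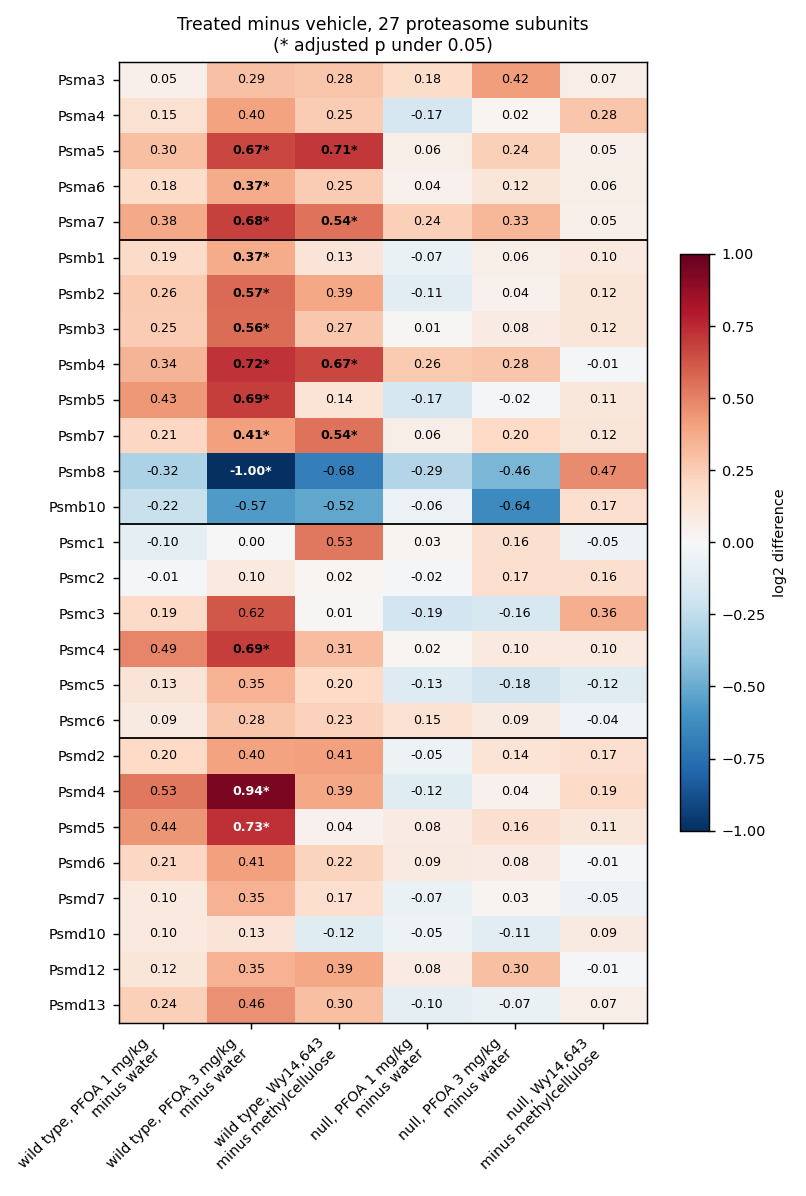
Log2 difference of each tested proteasome subunit (rows, ordered by class) between treated and vehicle groups (columns); red is higher with treatment, blue lower, and a star marks an adjusted p under 0.05. The 12 starred rises and the starred fall of Psmb8 lie in the column for PFOA 3 mg/kg in wild type, 4 starred rises lie in the pirinixic acid column, and the null columns hold none.

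The core particle held most of the calls. Of its 13 tested genes, 9 rose and 1 fell, with a median of 0.41. Among the 11 constitutive core genes 9 rose, and all 11 were higher, with a median of 0.56 and a range of 0.29 to 0.72. Of the 5 alpha-ring genes, Psma5, Psma6 and Psma7 rose. Psma7 read 17.20, 17.26, 17.26 and 17.08 in wild-type controls on water. With PFOA 3 mg/kg the same probe read 17.61, 18.11, 17.92 and 17.86, so all treated arrays were above the controls. The difference was 0.68 ± 0.13 (1.60-fold, adjusted p = 0.00151). Psma5 read 15.57, 15.56, 15.74 and 15.48 with water and 15.97, 16.46, 16.52 and 16.06 with PFOA 3 mg/kg, again without overlap (0.67 ± 0.17, adjusted p = 0.0163). Psma6 rose by 0.37 ± 0.11 (adjusted p = 0.0424). Psma3 and Psma4 were 0.29 ± 0.16 and 0.40 ± 0.16, which did not pass the test (adjusted p = 0.338 and 0.159).

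Of the beta-ring genes, the structural subunits Psmb1, Psmb2, Psmb3 and Psmb4 and the catalytic subunits Psmb5 and Psmb7 rose. Psmb4 read 17.11, 17.03, 17.08 and 17.13 in wild type with water. After PFOA 3 mg/kg it read 17.80, 17.82, 17.89 and 17.72. The replicates of both groups lay close together and the groups were far apart, with a difference of 0.72 ± 0.13 (1.65-fold, adjusted p = 0.000495). Psmb2 read 16.41, 16.02, 16.49 and 16.22 with water and 16.69, 16.85, 17.12 and 16.74 with PFOA 3 mg/kg (0.57 ± 0.14, adjusted p = 0.0104). The lowest treated array of Psmb2 stood above the highest control array. Psmb3 rose by 0.56 ± 0.15 (adjusted p = 0.0191) and Psmb1 by 0.37 ± 0.11 (adjusted p = 0.041).

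Psmb5 carries the chymotrypsin-like activity of the constitutive core. It read 14.41, 13.56, 14.05 and 13.95 with water and 14.26, 14.97, 14.76 and 14.72 with PFOA 3 mg/kg. The lowest treated array, replicate 1, lay within the range of the controls, whose replicate 1 was the highest. Psmb5 rose by 0.69 ± 0.18 (adjusted p = 0.0189); the array sets gave 0.31 (smaller) and 1.06 (larger). Psmb7 carries the trypsin-like activity. It read 17.19, 17.36, 17.27 and 17.25 with water and 17.58, 17.66, 17.70 and 17.76 with PFOA 3 mg/kg, without overlap (0.41 ± 0.13, adjusted p = 0.048).

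The interferon-inducible replacements of these catalytic subunits went the other way. Psmb8, the replacement of Psmb5, read 13.26, 13.02, 13.09 and 13.16 in wild-type controls on water. With PFOA 3 mg/kg it read 11.99, 12.72, 11.82 and 12.00. All treated arrays lay below all controls, and replicate 2 was the highest of them. Psmb8 fell by 1.00 on the log2 scale (SE 0.25, adjusted p = 0.0114), and without treated replicate 3 by 0.90, which did not pass (adjusted p = 0.0557). Within the array sets it was -1.21 in the smaller and -0.78 in the larger. Psmb10, the replacement of Psmb7, read 14.44, 13.91, 14.16 and 13.91 with water and 13.31, 13.98, 13.51 and 13.35 with PFOA 3 mg/kg. One treated array, replicate 2, lay within the control range, and the difference of -0.57 ± 0.20 did not pass the test (adjusted p = 0.0993). Psmb10 was -0.84 in the smaller and -0.29 in the larger array set.

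Read within each array, the difference Psmb8 minus Psmb5 was lower by 1.69 on the log2 scale after PFOA 3 mg/kg than with water, and Psmb10 minus Psmb7 by 0.98. Each gave a two-sided exact permutation p of 0.0286, the smallest that 4 arrays against 4 allow. Adjusted over the 12 tests of these pairs (2 pairs in 6 treated groups), both were 0.114.

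**Figure D2:**
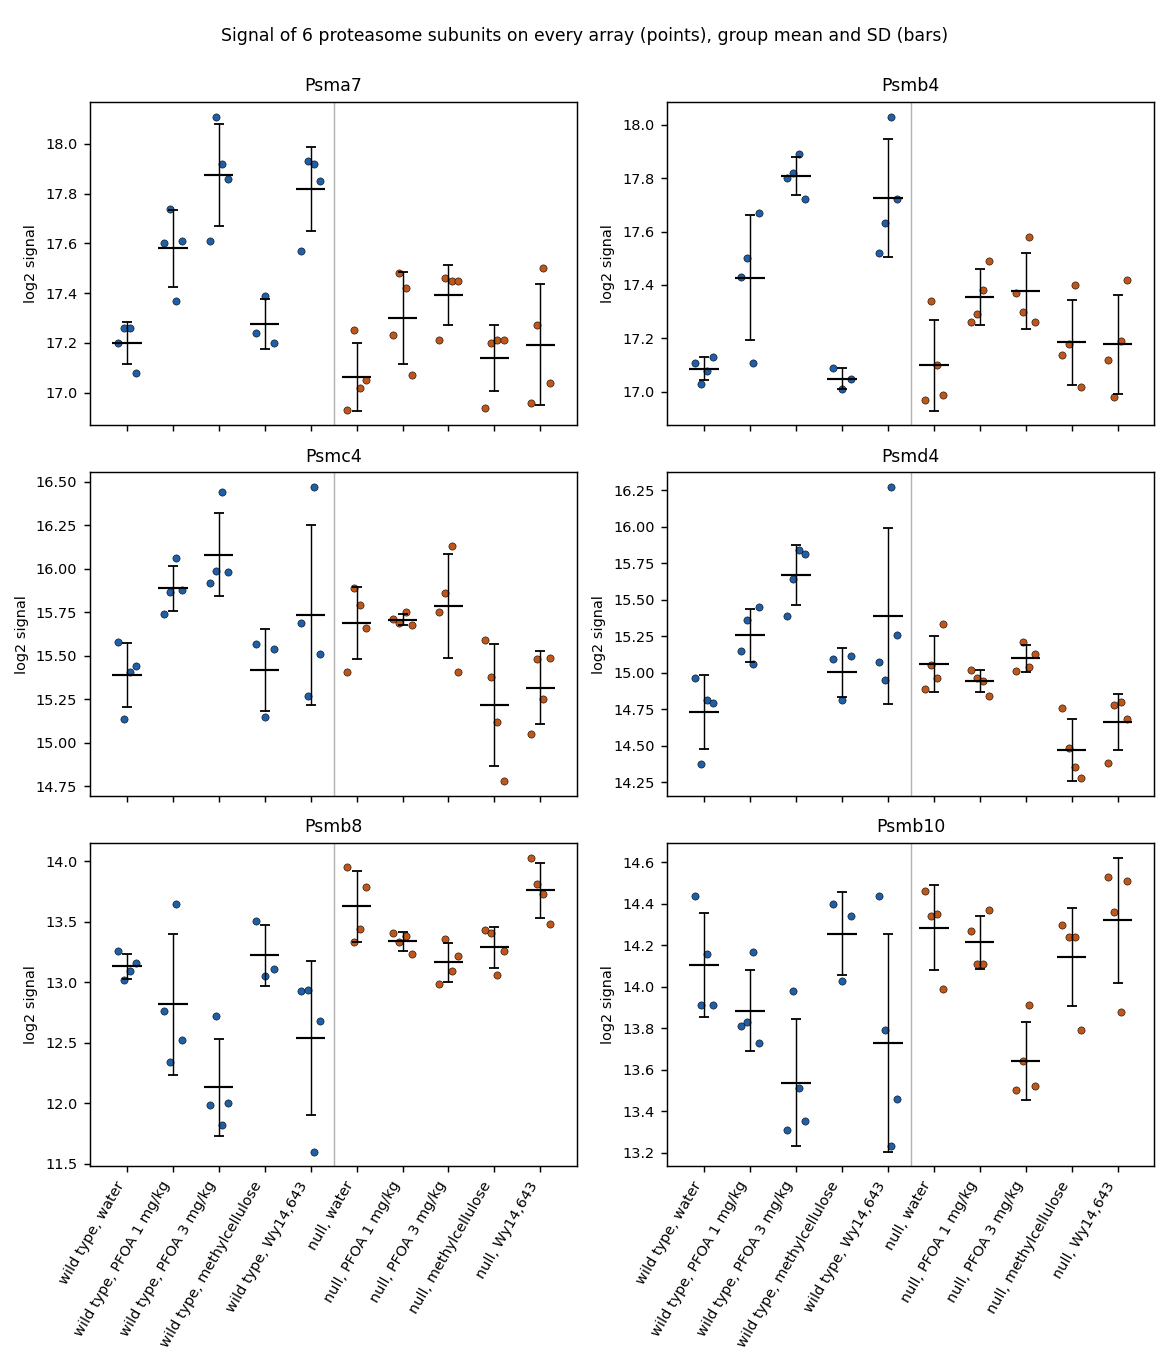
Log2 signal (vertical axis) of Psma7, Psmb4, Psmc4, Psmd4, Psmb8 and Psmb10 on every array, by group; points are arrays (blue wild type, orange null), horizontal bars group means and whiskers SDs. With PFOA 3 mg/kg in wild type, Psmb4 reads between 17.72 and 17.89, above all water arrays, while Psmb8 reads between 11.82 and 12.72, below them.

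Among the ATPases, 1 of 6 rose after PFOA 3 mg/kg, with a median of 0.31 for the class. Psmc4, a subunit of the unfolding ring, read 15.58, 15.14, 15.41 and 15.44 with water and 15.92, 15.99, 16.44 and 15.98 with PFOA 3 mg/kg. All treated arrays were above the controls, and replicate 3 stood apart from the other 3 treated arrays. Psmc4 rose by 0.69 ± 0.20 (adjusted p = 0.0348). Without replicate 3 of the treated group it was 0.57 ± 0.21 and did not pass (adjusted p = 0.159). Psmc6 read 16.02, 16.11, 16.14 and 16.18 with water and 16.40, 16.22, 16.66 and 16.26 with PFOA 3 mg/kg. Those groups did not overlap either, yet the difference of 0.28 ± 0.11 did not pass the test (adjusted p = 0.165). Psmc3 was 0.62 ± 0.40 (adjusted p = 0.45), with the widest error of the members. Psmc5 was 0.35 ± 0.17, Psmc2 0.10 ± 0.14 and Psmc1 0.00 ± 0.16, and none of these passed the test (adjusted p from 0.249 to 0.997).

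In the lid and base, 2 of 8 genes rose after PFOA 3 mg/kg, and all 8 were higher, with a median of 0.40. Psmd4, a ubiquitin receptor of the regulatory particle, read 14.96, 14.37, 14.81 and 14.79 with water. With PFOA 3 mg/kg it read 15.39, 15.64, 15.84 and 15.81. The groups did not overlap, and the rise of 0.94 ± 0.19 (1.92-fold, adjusted p = 0.00213) was the largest of any member in this comparison. Psmd5, a chaperone that assembles the regulatory particle and leaves it, read 13.74, 13.32, 13.13 and 13.65 with water and 14.13, 14.17, 14.35 and 14.13 with PFOA 3 mg/kg. It rose without overlap by 0.73 ± 0.16 (adjusted p = 0.00313). Psmd10, another assembly chaperone, was 0.13 ± 0.14 (adjusted p = 0.681). The scaffold subunit Psmd2 was 0.40 ± 0.15, and the lid subunits Psmd6, Psmd7, Psmd12 and Psmd13 were 0.41 ± 0.13, 0.35 ± 0.15, 0.35 ± 0.19 and 0.46 ± 0.16. Of these 5, none passed the test (adjusted p from 0.0653 to 0.326).

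The members' median shift was alike in both array sets, but the calls and the sizes for single members, such as Psmb5 and Psmb8, were not. With the smaller set alone (2 arrays against 2) the members' median was 0.40 with 0 calls, and with the larger set alone (2 against 2) it was 0.46 with 6 rises. 4 rises were called whichever array of either group was left out, those of Psmd4, Psmd5, Psma7 and Psmb4. Leaving out replicate 3 of the PFOA group lowered the count to those 4 rises and 0 falls. The count was 5 rises and 1 fall without water replicate 2, the same without water replicate 4, and 5 rises and 2 falls without PFOA replicate 2. The median stayed between 0.38 and 0.43 over these leave-outs. Calls over all probes in these fits are not given here, so the counts do not compare the members with other probes. Fitted on the 8 arrays of the comparison alone, 0 members passed (324 of all probes rose and 117 fell), with the same median of 0.40.

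PFOA at 1 mg/kg gave smaller differences in wild-type liver. By limma 0 of 27 members were called, against 0.273% of all probes. At an unadjusted p under 0.05 there were 6, against 11% of all probes, all higher: Psma7, Psmb4, Psmb5, Psmc4, Psmd4 and Psmd5. In all, 23 of 27 members were higher, with a median of 0.19. Without the array that goes against its label, 24 of 27 were higher with a median of 0.26, and still 0 were called. The unadjusted count was then 11: 10 were higher and Psmb8 was lower. The share of all probes was not counted in that fit, so the 11 cannot be set beside the 6. Psmb4 read 17.43, 17.50, 17.11 and 17.67 at this dose. Its replicate 3, the doubted array, was the lowest and lay within the water range, while the other 3 were above it. The difference was 0.34 ± 0.13 with all arrays (adjusted p = 0.331) and 0.44 ± 0.13 without replicate 3 (adjusted p = 0.122).

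Psmd4 read 15.15, 15.36, 15.06 and 15.45 at 1 mg/kg, all above the water arrays. That gave 0.53 ± 0.19 with all arrays and 0.59 ± 0.21 without replicate 3 (adjusted p = 0.309 and 0.243). Psma7 read 17.60, 17.74, 17.37 and 17.61, also wholly above water (0.38 ± 0.13, adjusted p = 0.292; 0.45 ± 0.14 and 0.163 without replicate 3). With the doubted array included, 5 of 27 members had all treated arrays above all water arrays, against 2.91% of all probes. These were Psma7, Psmc4, Psmd4, Psmd5 and Psmd6. Psmb8 read 12.76, 12.34, 13.65 and 12.52. Replicate 3 had the highest Psmb8 signal and the other 3 arrays were below every water control. The difference of -0.32 ± 0.25 became -0.59 ± 0.23 without replicate 3, and neither passed (adjusted p = 0.667 and 0.329). Psmb10 read 13.81, 13.83, 14.17 and 13.73, where replicate 3 was again the highest (-0.22 ± 0.20, adjusted p = 0.728; -0.32 ± 0.22 and 0.671 without it).

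Between the doses, 25 of 27 members were higher at 3 than at 1 mg/kg, with a median of 0.22 (0.16 without the doubted array). By limma 0 members passed the test of the dose difference, against 0.0277% of all probes, and 7 had an unadjusted p under 0.05 (7.5% of all probes did). Without the doubted array 1 of these remained under 0.05, Psmb4, and the share of all probes was not counted. Psmb4 was 0.38 ± 0.13 (adjusted p = 0.397) and Psmb8 -0.68 ± 0.25 (adjusted p = 0.441). Without the doubted array Psmb4 was 0.28 ± 0.13 and Psmb8 -0.40 ± 0.23, and 0 members were called.

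pirinixic acid in wild-type liver was accompanied by fewer calls. 4 of 27 members rose and 0 fell, while 2.8% of all probes were called higher and 6.1% in either direction. All 4 are core genes: Psma5, Psma7, Psmb4 and Psmb7. Of the members, 24 of 27 were higher than with methylcellulose, with a median of 0.25 against -0.03 over all probes. 6 members had all treated arrays above all controls, against 7.8% of all probes: Psma5, Psma6, Psma7, Psmb2, Psmb4 and Psmb7. Psmb8 had all its treated arrays below the controls, against 9.55% of all probes.

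Psmb4 read 17.09, 17.01 and 17.05 with methylcellulose and 17.52, 17.63, 18.03 and 17.72 with pirinixic acid. All treated arrays were above the controls (0.67 ± 0.14, adjusted p = 0.00302). Psmb7 read 17.17, 17.23 and 17.15 with methylcellulose and 17.52, 17.95, 17.75 and 17.69 with pirinixic acid, also apart (0.54 ± 0.14, adjusted p = 0.0132). Psma7 read 17.24, 17.39 and 17.20 with methylcellulose and 17.57, 17.93, 17.92 and 17.85 with pirinixic acid. The lowest treated array of Psma7 exceeded the highest control (0.54 ± 0.14, adjusted p = 0.0212). Psma5 read 15.43, 15.46 and 15.41 with methylcellulose and 15.78, 16.03, 16.76 and 15.98 with pirinixic acid, and rose by 0.71 ± 0.19 (adjusted p = 0.0194).

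One pirinixic acid array stood apart in several members. Replicate 3 had the highest Psma5, Psmb4, Psmc4, Psmd4 and Psmd5 signals of its group and the lowest Psmb8 and Psmb10 signals. Psmd4 read 15.07, 14.95, 16.27 and 15.26 with pirinixic acid and 15.09, 14.81 and 15.11 with methylcellulose, so 3 of the 4 treated arrays lay within or near the control range. Psmd4 was 0.39 ± 0.21 with all arrays and 0.09 ± 0.17 without replicate 3 (adjusted p = 0.291 and 0.83). Psmc4 read 15.69, 15.27, 16.47 and 15.51 with pirinixic acid and 15.57, 15.15 and 15.54 with methylcellulose, where only replicate 3 stood clearly above the controls (0.31 ± 0.22, and 0.07 ± 0.20 without it). Leaving out replicate 3 lowered the members' median to 0.15 and the calls to Psmb4 and Psmb7. Leaving out pirinixic acid replicate 1 gave 6 rises and 1 fall, and methylcellulose replicate 3 left 1 rise. Without pirinixic acid replicate 2 there were 2 rises, as there were without methylcellulose replicate 1. The rise of Psmb4 was called whichever array was left out. Calls over all probes are not given for these leave-outs either. Within the larger array set, which holds all 4 pirinixic acid arrays and 2 of the 3 controls, the median was 0.31 and 0 members were called. Fitted on the 7 arrays of the comparison alone, 0 members passed, while 61 of all probes rose and 9 fell.

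Psmb8 read 13.51, 13.05 and 13.11 with methylcellulose and 12.93, 12.94, 11.60 and 12.68 with pirinixic acid. Its treated arrays were all lower, replicate 3 by far. The difference was -0.68 ± 0.27 with all arrays and -0.37 ± 0.24 without replicate 3, and did not pass in either case (adjusted p = 0.123 and 0.430). Psmb10 read 14.40, 14.03 and 14.34 with methylcellulose and 14.44, 13.79, 13.23 and 13.46 with pirinixic acid, with replicate 1 above all controls and the other 3 below them (-0.52 ± 0.22, adjusted p = 0.159). Within arrays, Psmb8 minus Psmb5 was lower by 0.83 than with methylcellulose. That gave an exact permutation p of 0.0571, the smallest that 4 arrays against 3 allow (0.137 adjusted over the 12 tests). For Psmb10 minus Psmb7 it was lower by 1.06 (exact permutation p = 0.114, adjusted 0.196). Psmb5 itself read 14.25, 14.13 and 14.32 with methylcellulose and 14.38, 14.18, 14.50 and 14.45 with pirinixic acid, overlapping values with a difference of 0.14 ± 0.20 (adjusted p = 0.736).

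The treatments as given were also compared through their responses, each against its own vehicle; the compounds differed in dose and vehicle. The 4 rises with pirinixic acid are 100% of its list and 33.3% of the 12 rises with PFOA 3 mg/kg. The difference of the responses, PFOA 3 mg/kg minus pirinixic acid, had a median of 0.15 over the members, with 20 of 27 above 0. Leaving out 1 array moved that median from 0.07 (without pirinixic acid replicate 2) to 0.25 (without pirinixic acid replicate 3, with 23 of 27 above 0). It was 0.10 without PFOA replicate 3 and also without water replicate 2. By limma 0 members passed, against 0.0119% of all probes, and 2 had an unadjusted p under 0.05 (13.4% of all probes did). Psmd5 was 0.69 ± 0.23 (95% interval 0.22 to 1.16, adjusted p = 0.247), the larger response being that to PFOA. Psmc1, an ATPase, was -0.53 ± 0.24 (95% interval -1.02 to -0.03, adjusted p = 0.338), with 0.00 after PFOA and 0.53 after pirinixic acid. Psmb5 was 0.54 ± 0.27 (95% interval 0.00 to 1.09) and Psmb4 0.05 ± 0.19 (95% interval -0.34 to 0.43). Without pirinixic acid replicate 3, Psmd5 was 0.78 ± 0.23 (adjusted p = 0.156) and Psmb4 0.15 ± 0.19 (adjusted p = 0.774). Psmd4 was 0.55 ± 0.28 with all arrays and 0.85 ± 0.22 without that one, and passed in neither case (adjusted p = 0.396 and 0.122).

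**Figure D3:**
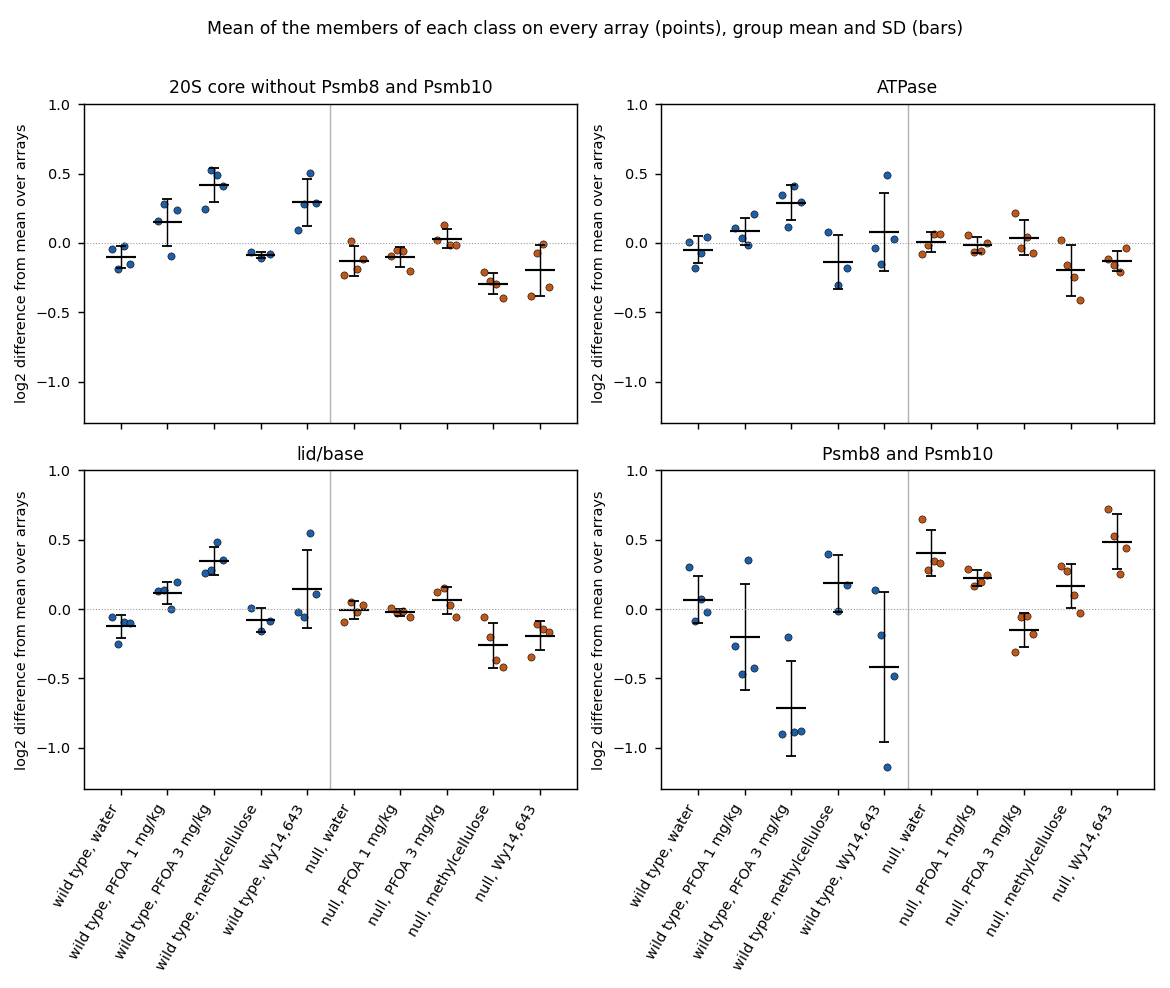
Mean log2 signal of the members of each class on every array, as a difference from each member's mean over the 39 arrays (vertical axis), by group; points are arrays (blue wild type, orange null), bars are group means and SDs. In wild type the core without Psmb8 and Psmb10 averages -0.10 (water), 0.15 (PFOA 1 mg/kg; 0.23 without the doubted replicate 3), 0.42 (PFOA 3 mg/kg), -0.09 (methylcellulose) and 0.29 (pirinixic acid), while Psmb8 and Psmb10 together average -0.72 at the higher dose.

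The class means by array showed the same picture. The 11 constitutive core genes averaged 0.42 ± 0.12 (SD, n = 4) with PFOA 3 mg/kg in wild type, expressed as the difference from each member's mean over the 39 arrays, and -0.10 ± 0.08 with water. With Psmb8 and Psmb10 included, the 13 tested core genes averaged 0.24 ± 0.14 with PFOA 3 mg/kg and -0.08 ± 0.09 with water. In the rest of this paragraph the core means the 11 constitutive genes. At 1 mg/kg the core averaged 0.15 ± 0.17, and 0.23 ± 0.06 without the doubted array (n = 3). The lid and base genes averaged 0.35 ± 0.10 against -0.13 ± 0.09, and the ATPases 0.29 ± 0.13 against -0.05 ± 0.10. For each of these 3 classes the lowest PFOA array lay above the highest water array: 0.25 against -0.02 for the core, 0.26 against -0.06 for lid and base, and 0.11 against 0.04 for the ATPases. With pirinixic acid the core averaged 0.29 ± 0.17 against -0.09 ± 0.02 with methylcellulose (n = 3), and the groups did not overlap. The ATPases were 0.08 ± 0.28 against -0.14 ± 0.20, and the lid and base genes 0.15 ± 0.28 against -0.08 ± 0.08, with overlapping arrays in both classes. In null liver the core averaged -0.13 ± 0.11 with water and 0.03 ± 0.07 with PFOA 3 mg/kg, and the highest control overlapped the treated arrays. Psmb8 and Psmb10 together averaged -0.72 ± 0.34 with PFOA 3 mg/kg against 0.07 ± 0.17 with water in wild type, and -0.15 ± 0.12 against 0.40 ± 0.17 in null, without overlap in either genotype.

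In PPARa-null liver PFOA at 3 mg/kg left the subunits without a call. By limma 0 of 27 members were called, against 0.3% of all probes, and 4 had an unadjusted p under 0.05 (Psma3, Psma7 and Psmb4 higher, Psmb10 lower), against 8.35% of all probes. The median was 0.08, with 20 of 27 members higher. Psma3 had all its treated arrays above the controls, against 2.47% of all probes, with a difference of 0.42 ± 0.16 (adjusted p = 0.441). Psmb10 had all of them below, against 3.46% of all probes.

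Psmb4 read 16.97, 17.34, 17.10 and 16.99 in null liver with water and 17.37, 17.30, 17.58 and 17.26 with PFOA 3 mg/kg. The groups overlapped at the highest control, and the difference was 0.28 ± 0.13 (adjusted p = 0.571). Psma7 read 16.93, 17.25, 17.02 and 17.05 with water and 17.21, 17.46, 17.45 and 17.45 with PFOA, again overlapping (0.33 ± 0.13, adjusted p = 0.506). Psmd4 read 14.89, 15.05, 14.96 and 15.33 with water and 15.01, 15.21, 15.04 and 15.13 with PFOA, intermixed values with a difference of 0.04 ± 0.19. Psmd5 read 13.77, 13.44, 13.75 and 13.71 with water and 13.89, 13.98, 13.91 and 13.51 with PFOA (0.16 ± 0.16). In Psmc4, 15.41, 15.89, 15.79 and 15.66 with water stood beside 15.75, 15.86, 16.13 and 15.41 with PFOA (0.10 ± 0.20). These 3 genes, called in wild type, did not pass here (adjusted p = 0.978, 0.861 and 0.937).

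Of the core proteases, Psmb5 read 14.14, 14.28, 14.26 and 14.47 in null liver with water and 14.23, 14.52, 14.22 and 14.09 with PFOA 3 mg/kg (-0.02 ± 0.18). Psmb7 read 16.94, 17.33, 17.06 and 17.11 with water and 17.34, 17.36, 17.12 and 17.40 with PFOA (0.20 ± 0.13). Neither passed the test, and in both the groups overlapped. Psmb10 read 14.46, 14.34, 14.35 and 13.99 with water and 13.50, 13.64, 13.91 and 13.52 with PFOA. Its groups did not overlap, with a difference of -0.64 ± 0.20, near that of wild type, but it was not called (adjusted p = 0.278). Within arrays Psmb10 minus Psmb7 was lower by 0.84 (exact permutation p = 0.0286, the smallest possible, and 0.114 adjusted over the 12 tests). Psmb8 read 13.95, 13.33, 13.44 and 13.79 with water and 12.99, 13.36, 13.09 and 13.22 with PFOA. The groups overlapped by 1 treated and 1 control array (-0.46 ± 0.25, adjusted p = 0.633).

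At 1 mg/kg in null liver 0 members were called by limma, against 0.0119% of all probes, and 0 had an unadjusted p under 0.05 (3.97% of all probes did). The median was -0.02, with 13 of 27 higher. With pirinixic acid in null liver 0 members were called, as were 0.0% of all probes, and again 0 had an unadjusted p under 0.05 (2.73% of all probes did). The median was 0.10, with 20 of 27 higher; the array sets differed in direction (-0.16 smaller, 0.20 larger). Psmb4 read 17.14, 17.18, 17.40 and 17.02 in null liver with methylcellulose and 17.12, 16.98, 17.19 and 17.42 with pirinixic acid, with no separation (-0.01 ± 0.13). Psmb8 read 13.43, 13.41, 13.06 and 13.26 with methylcellulose and 14.03, 13.81, 13.73 and 13.48 with pirinixic acid. Here all treated arrays were above the controls, as they were for 1.32% of all probes. The direction was opposite to wild type, and the difference of 0.47 ± 0.25 did not pass (adjusted p = 1).

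**Figure D4:**
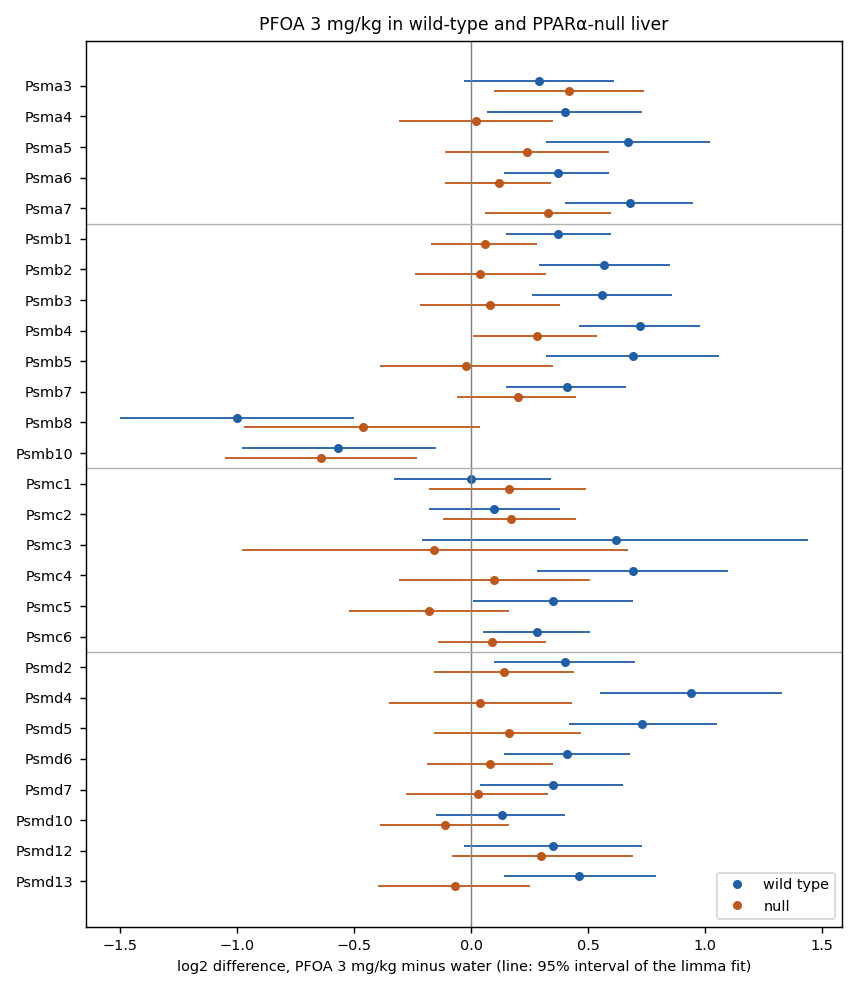
Log2 difference between PFOA 3 mg/kg and water (horizontal axis) for each tested member in wild type (blue) and null (orange); lines are 95% intervals of the limma fit. The wild-type point lies to the right of the null point for most members (Psmd4 at 0.94 against 0.04), while Psmb10 lies at -0.57 and -0.64.

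Whether the genotypes differed in their response was tested directly as an interaction. For PFOA 3 mg/kg, 0 members passed by limma, against 0.415% of all probes, and 9 had an unadjusted p under 0.05, all of them with a lower value in null (10.7% of all probes in either direction). Subtracting the wild-type from the null response gave a median of -0.32, and 23 of 27 members were below 0. Psmd4 was -0.90 ± 0.27 (95% interval -1.46 to -0.35, adjusted p = 0.169), Psmb5 -0.71 ± 0.26 (95% interval -1.23 to -0.18, adjusted p = 0.28) and Psmb2 -0.52 ± 0.19 (adjusted p = 0.298). For Psmb4 it was -0.44 ± 0.18 (adjusted p = 0.363). Psmb8 was 0.53 ± 0.35 and Psmb10 -0.07 ± 0.29, with intervals that include 0 (-0.17 to 1.24 and -0.65 to 0.51). The rises were thus called in wild type and not in null, while the difference between the genotypes was called for 0 members.

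For pirinixic acid the interaction had a median of -0.22, with 20 of 27 members below 0. By limma 0 members passed, against 1.24% of all probes, and 7 had an unadjusted p under 0.05, against 15.1% of all probes. Psmb4 came closest, at -0.69 ± 0.19 (95% interval -1.07 to -0.30, adjusted p = 0.0632). Psmb8 was 1.15 ± 0.36 (95% interval 0.42 to 1.89, adjusted p = 0.102), from a lower signal with pirinixic acid in wild type and a higher one in null. Psma5 was -0.66 ± 0.25 (adjusted p = 0.191). Without pirinixic acid replicate 3 of wild type the median was -0.10, Psmb4 was -0.58 (adjusted p = 0.142) and Psmb8 was 0.84 (adjusted p = 0.22). For PFOA 1 mg/kg, 0 members passed by limma, against 0.0% of all probes, and 2 had an unadjusted p under 0.05 (Psmb5 and Psmd4), against 5.04% of all probes. The median was -0.16. Without the doubted array it was -0.26, and Psmb2 was also under 0.05 (3 members, with no count over all probes).

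The untreated genotypes and the vehicles gave no call among the members. Null minus wild type on water had a median of 0.08, with 0 members called by limma (0.127% of all probes) and 1 at an unadjusted p under 0.05, Psma3 (10.8% of all probes). On methylcellulose the median was -0.17, with 22 of 27 lower in null, 0 called (0.186% of all probes) and 4 at an unadjusted p under 0.05 (12.5% of all probes). In null liver, methylcellulose minus water had a median of -0.22, with 23 of 27 lower, 0 called (0.0% of all probes) and 6 at an unadjusted p under 0.05 (11.6% of all probes). Psmd4 was -0.59 ± 0.19 there (adjusted p = 0.347) and Psmb5 -0.54 ± 0.18 (adjusted p = 0.348). Psmd4 read 14.76, 14.48, 14.35 and 14.28 in null liver with methylcellulose, all below the water arrays. In wild type the vehicles differed by a median of -0.03, with 0 members called (0.0% of all probes) and 0 at an unadjusted p under 0.05 (8.66% of all probes).

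Signals of the members varied together over the arrays. The median Pearson correlation of pairs of members, Psmb8 and Psmb10 aside, was 0.58 over the 39 arrays (300 pairs), and 0.01 for pairs of the 5316 bright probes. It was 0.74 within the constitutive core (55 pairs), 0.60 within lid and base (28 pairs) and 0.39 among the ATPases (15 pairs). These values share the groups: on deviations from the group means the medians were 0.33 for the members, 0.38 for the core, 0.35 for lid and base and 0.21 for the ATPases, against 0.01 for the bright probes. Psmb8 and Psmb10 correlated with each other at 0.74, and at 0.55 on deviations. Against the other members their median was -0.56, and -0.31 on deviations. All are descriptions over arrays that share samples and scaling.

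Around the subunits, genes of the same pathway were read from lists of activators, ubiquitin carriers and regulators. Of the activators, inhibitor and assembly factors, 9 of 12 listed genes were tested. After PFOA 3 mg/kg in wild type 0 of the 9 were called by limma (2 at an unadjusted p under 0.05), 8 were higher and the median was 0.26. Of all probes, 18.6% had an unadjusted p under 0.05 in that comparison, and 20.9% with pirinixic acid in wild type. Pomp, the chaperone that matures the core, read 16.62, 16.67, 16.68 and 16.49 with water and 16.76, 16.99, 16.87 and 16.88 with PFOA 3 mg/kg, without overlap. The difference of 0.26 ± 0.12 did not pass (adjusted p = 0.204). With pirinixic acid it read 16.62, 17.14, 16.90 and 16.97 against 16.55, 16.53 and 16.30 with methylcellulose, and it was the 1 gene of the 9 that rose (0.44 ± 0.12, adjusted p = 0.0284).

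Of the genes for substrate capture, deubiquitination and delivery, 11 of 15 listed were tested. All 11 were higher after PFOA 3 mg/kg in wild type, with a median of 0.31, and 2 rose. Vcp, the ATPase that extracts ubiquitinated proteins from complexes and membranes, read 17.06, 16.86, 17.02 and 17.00 with water and 17.48, 17.42, 17.92 and 17.43 with PFOA (0.58 ± 0.17, adjusted p = 0.0354). Ubqln2, a shuttle that carries ubiquitinated proteins to the proteasome, read 13.00, 12.97, 12.80 and 12.71 with water and 13.48, 13.75, 13.60 and 13.23 with PFOA (0.65 ± 0.15, adjusted p = 0.00915). In neither gene did the groups overlap. With pirinixic acid 0 of the 11 were called by limma, and 3 had an unadjusted p under 0.05, against 20.9% of all probes (median 0.22). Among the ubiquitin genes and enzymes, 11 of 16 listed were tested, and Ube2d1, a ubiquitin-conjugating enzyme, was the 1 called (0.40 ± 0.12, adjusted p = 0.0477). Of that list 5 were higher, with a median of -0.12. With pirinixic acid 0 of the 11 were called by limma or had an unadjusted p under 0.05 (median 0.01).

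Of the transcription factors and regulators of the subunit genes, 9 of 12 listed were tested. After PFOA 3 mg/kg in wild type 1 fell, Mafg, a small partner of Nfe2l1 and Nfe2l2 (-0.42 ± 0.12, adjusted p = 0.0302). Nfe2l1 read 11.53, 11.60, 11.37 and 12.11 with water and 11.64, 12.58, 12.38 and 13.15 with PFOA, and its difference of 0.79 ± 0.41 did not pass (adjusted p = 0.302). With pirinixic acid 0 of the 9 regulators were called by limma or had an unadjusted p under 0.05 (median -0.22). Of the NRF2 targets, 10 of 12 listed were tested. After PFOA 3 mg/kg in wild type 6 of the 10 were higher, with a median of 0.29, and 3 rose. Srxn1, which repairs peroxiredoxins, rose by 2.0 ± 0.30 (adjusted p = 4.83e-05). The glutathione transferase Gstm4 rose by 1.65 ± 0.25 (adjusted p = 6.55e-05) and the epoxide hydrolase Ephx1 by 0.83 ± 0.13 (adjusted p = 7.33e-05). In null liver with PFOA 3 mg/kg Gstm4 and Ephx1 rose too (1.31 ± 0.25 and 0.87 ± 0.13, adjusted p = 0.00866 and 0.000244). There 8 of the 10 were higher, with a median of 0.14. With pirinixic acid in wild type Gstm4 was the 1 target that rose (1.05 ± 0.27, adjusted p = 0.0171). Of the 10, 4 were higher in that comparison, with a median of -0.02.

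The antigen processing partners of the immunoproteasome were read beside Psmb8 and Psmb10. Of 13 listed genes 9 were tested. After PFOA 3 mg/kg in wild type 2 fell, and the median was -0.10. Erap1, which trims peptides for antigen presentation, fell (-0.63 ± 0.14, adjusted p = 0.00378), as did Calr, a chaperone of the endoplasmic reticulum (-0.72 ± 0.20, adjusted p = 0.0291). Tap1, a subunit of the peptide transporter, read 11.56, 11.20, 11.64 and 11.48 with water and 11.86, 11.56, 11.54 and 11.72 with PFOA, overlapping values. With pirinixic acid 0 of the 9 were called by limma, and 3 had an unadjusted p under 0.05, against 20.9% of all probes. The lowest limma p was that of Erap1 (-0.43 ± 0.15, adjusted p = 0.0747).

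Markers of other liver cells were read in the same comparisons. Of 10 Kupffer cell markers 8 were tested. After PFOA 3 mg/kg in wild type 0 of the 8 were higher and 1 fell, with a median of -0.50; their mean signal was 11.91 to 12.39 per array, against 12.41 to 12.74 with water. The 1 that fell was Vsig4 (-0.67 ± 0.18, adjusted p = 0.0212). With pirinixic acid 4 of the 8 fell (Clec4f, Vsig4, C1qa and C1qb), with a median of -0.69 and mean signals of 12.09 to 12.35 per array, against 12.60 to 12.95 with methylcellulose. In null liver with PFOA 3 mg/kg 0 of the 8 were called by limma, with a median of -0.31. There 1 had an unadjusted p under 0.05, against 8.35% of all probes. With pirinixic acid in null liver all 8 were higher and 0 were called by limma, with a median of 0.41. At an unadjusted p under 0.05 there were 2, against 2.73% of all probes. Averaged over the 39 arrays, Marco and Adgre1 read below the median of all probes. Of the 10 lymphocyte markers 8 were tested. After PFOA 3 mg/kg in wild type 0 of these were called by limma, with a median of -0.15. At an unadjusted p under 0.05 there was 1, against 18.6% of all probes. Of the 8 markers, 5 (Cd3e, Cd3d, Cd3g, Cd79b and Ms4a1) averaged below the median of all probes. Of the 7 hepatocyte markers 5 were tested, of which 1 fell after PFOA 3 mg/kg in wild type (median -0.41) and 2, Ahsg and Trf, with pirinixic acid (median -0.26). Of the 10 endothelial markers, all tested, 1 rose and 2 fell after PFOA 3 mg/kg in wild type (median -0.10), and 5 fell with pirinixic acid (median -0.55). Of 8 stellate cell and 3 red blood cell markers tested, 1 each fell with pirinixic acid (medians -0.38 and -1.01). After PFOA 3 mg/kg in wild type 1 stellate cell marker fell (median -0.08). In null liver with PFOA 3 mg/kg 1 of 8 stellate cell markers rose, Col1a1 (3.10 ± 0.38, adjusted p = 1.52e-05), with a median of -0.09 for the list. There 1 of 4 neutrophil markers rose as well, S100a8 (7.44 ± 0.70, adjusted p = 8.07e-08). Of the 4, 2 were higher, with a median of 0.17 for the list. The mean of the 4, S100a8 included, was 10.46 to 11.05 per array against 8.61 to 9.47 with water. Averaged over the 39 arrays, S100a8, Camp and Elane were below the median of all probes. The part of these cells in the signals of Psmb8, Psmb10 or the other members was not tested.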

How the data were processed

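Liver RNA was labelled with digoxigenin and hybridised to 39 Mouse Genome Survey arrays of Applied Biosystems, per the labels' protocols. The deposited values were processed by the authors: they are log2 signals with equal quantiles on every array (median 9.14), a scale and normalization read from the values, since the sources used here do not name the steps behind them. Array precision is limited by the number of arrays, 3 or 4 per group. The table holds 33012 probes, of which 14411 have 1 gene symbol, 247 several and 18354 none; 7717 lack a value on some array and were left out of the tests.

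A group-means model on all 39 arrays was fitted with limma 3.58.1 (R 4.3.3), with moderated variances and adjustment over 25295 probes in each of 15 comparisons. The fit was run on simulated data with independent normal noise for each probe. That simulation held neither the array sets nor the doubted array, so it does not test the fit under them. Values within arrays were compared by exact permutation (scipy 1.17.1). The labels call the replicates 4 animals per group. Same-numbered arrays were not regularly alike: of 37 same-numbered pairs 16 correlated above 0.1, and in 0 of 10 comparisons did all pairs. The numbers do go partly with the array sets. Every replicate 2 array lay in the larger set, and most replicate 1 and replicate 4 arrays lay in the smaller. Whether the numbers mark a batch was not tested. The array sets were read from 84 probes with values in separate clusters, a median of 4.37 apart.

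Members were taken by symbol, 1 probe per gene. Array values, for some of the groups only, are given for 2 members of each class (Psma, Psmb, Psmc, Psmd). These had the lowest adjusted p for PFOA 3 mg/kg in wild type. The interferon-inducible subunits and their counterparts were treated likewise. Other pathway genes are named only where called in a comparison or among the 3 lowest p of their list. The members and lists were chosen with earlier results of these data known. Alternatives were the replicate number or array set as a block, an index of 583 silent probes as a covariate, other probe filters, requantiling, gene means, smaller sets of arrays and leaving out each array. Promoters of 23 of the 28 members were taken from RefSeq (GRCm38.p6).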

Additional observations from a re-analysis of the deposited data

Results flagged for a closer look

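Within-group outliers were sought in 108 groups of 4 arrays, for 12 named members in 9 groups each, as a gap to the nearest array that fills most of the range. Chance flags about 1 in 20 such groups, and 4 were found. Psmc4 read 16.44 in replicate 3 of wild type with PFOA 3 mg/kg, above the 15.92 to 15.99 of the other 3 arrays, and the rise of Psmc4 was not called without it. In null liver with PFOA 3 mg/kg, Psma7 was lowest in replicate 1, at 17.21 against 17.45 to 17.46. In null liver with methylcellulose, Psma7 was lowest in replicate 1, at 16.94 against 17.20 to 17.21. In the same group, Psmb10 was lowest in replicate 4, at 13.79 against 14.24 to 14.30.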

How the results depend on the processing

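For PFOA 3 mg/kg in wild type, 13 members were called (12 rises, 1 fall). The count was 0 when only the 8 arrays of the comparison were fitted, 0 on the 16 arrays of the smaller set and 6 on the 23 of the larger (fits within a set were chosen after seeing the data). Leaving out each array gave 4 to 13. With the replicate number as a block, which goes partly with the array set, the count was 14 (13 rises, 1 fall). All 17 called member results stayed called there. With the array set as a block it was 15, with all probes that lack values tested too 9, and with the silent-probe index as a covariate 9, of which 2 were falls (Psmb10 was then -0.73, adjusted p = 0.0287). For pirinixic acid in wild type, the 4 calls became 0 when only the 7 arrays of the comparison were fitted and 0 in the larger array set; leaving out each array gave 1 to 7. For the null minus wild-type response to pirinixic acid, the 0 calls became 2 (1 higher, 1 lower) when only probes above the median signal were tested, and leaving out each array gave 0 to 1 (1 lower without pirinixic acid replicate 1 of wild type, or without replicate 4 of null). Fits on part of the arrays have fewer samples to estimate the spread, and the cause of the other shifts was not tested. These counts stand without the share of all probes called in the same setting. They do not show whether calls changed more in the members than elsewhere. Of the 17 called results none changed sign in these settings (0 reversed). In the smaller set no array holds pirinixic acid in wild type, so that comparison was not run there.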
